A study of Mus musculus with 4 samples.

Results

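Border-associated macrophages are the resident macrophages of the brain's surroundings: the perivascular spaces, the meninges and the choroid plexus. They take up proteins, lipids and iron compounds from the fluid around vessels through scavenger and lectin receptors such as Mrc1 and Cd163, and they are told apart from microglia, the macrophages of the brain tissue itself, by genes such as Pf4, Mrc1 and Ms4a7. A part of them carries MHC class II, the molecule that presents peptides to CD4+ T cells, and in several tissues the level of class II is used with that of Lyve1, a hyaluronan receptor, to divide resident macrophages.

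Brain vascular-associated cells were profiled by single-cell RNA sequencing of wild-type (WT) male C57BL/6 mice, 12 to 14 weeks old, after 14 days of chronic social defeat (CSD) or home cage housing (HC). CSD mice lived behind a perforated partition next to an aggressive CD-1 mouse, with 5 minutes of direct contact a day, and HC mice were kept behind a partition that was never removed, per the study's methods also beside a CD-1 mouse. Cells were dissociated with collagenase and enriched with magnetic beads against CD31, an endothelial adhesion molecule. Macrophages were a minor class of the libraries. Each of the 4 libraries (CSD 1, CSD 2, HC 1 and HC 2) was a pool of 4 mice, which gives n = 2 libraries per group.

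Cells were barcodes that held 500 or more UMIs (unique molecular identifiers, 1 per captured mRNA molecule) from 250 or more genes, with no more than 25% of the UMIs from mitochondrial genes. Among these, a border-associated macrophage was a cell with at least 3 UMIs of Pf4, Mrc1 and Ms4a7 together that made up at least 0.2% of its UMIs, at least 2 UMIs of the complement genes C1qa, C1qb and C1qc, under 0.5% of UMIs from the endothelial genes Cldn5, Flt1, Itm2a, Ly6c1 and Ly6a, and under 0.1% from the microglial genes P2ry12 and Tmem119. This rule took 120 of 14415 cells (0.833%). The 120 cells held 285399 UMIs, with a median of 2042.5 UMIs and 946.5 genes per cell. Since these genes chose the cells, their levels and every other difference of these cells from microglia or endothelial cells are given as a description with no test.

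The macrophages were spread unevenly over the libraries. CSD 1 held 40 among 4079 cells, CSD 2 held 4 among 2553, HC 1 held 55 among 2849 and HC 2 held 21 among 4934. HC 1 alone supplied 45.8% of the macrophages, and CSD 2 rested on 4 cells and 16468 UMIs against 83383 in CSD 1, 152049 in HC 1 and 33499 in HC 2. A single cell of CSD 2, with 10403 UMIs, gave 63.2% of the UMIs of that library's macrophages, against at most 9.75% from the deepest cell of any other library. A gene at 0 could therefore have been as high as 182 CPM (a gene's UMIs scaled to the UMI total of the class in a library) in CSD 2 on a floor of 3 UMIs, against 36.0 in CSD 1, 19.7 in HC 1 and 89.6 in HC 2. CSD 2 also had the highest median share of mitochondrial UMIs in macrophages, 8.85%, against 5.94% in CSD 1, 6.12% in HC 1 and 5.02% in HC 2.

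Some cells lay just past the limits of the rule. The 3 marker genes had a median of 12 UMIs per macrophage, from 3 to 70, with 6 macrophages at the limit of 3 and 5 cells that met the other limits at 2. The lowest marker share inside the rule was 0.226% and the highest outside it 0.188%, with 18 cells left out by this share alone. The endothelial share reached 0.347% inside and began at 0.648% outside, and the share of P2ry12 and Tmem119 reached 0.0979% inside and began at 0.104% outside. C1q genes had a median of 30 UMIs, and no cell failed on C1q alone. Of the 120 macrophages, 107 had no UMI of the 5 endothelial genes and 93 had none of P2ry12 or Tmem119. No macrophage barcode occurred among the cells of another library. Scrublet, which scores cells as doublets, marked no macrophage. It marked 0.0981% of the cells of CSD 1, 0.431% of CSD 2, 1.23% of HC 1 and 1.48% of HC 2, all below the expected rate of 6% it was given, so doublets may remain in every library. Macrophages of HC 2 had a median doublet score of 0.110 against 0.0489 in all cells of that library.

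As a share of cells, macrophages made up 0.981% of CSD 1 (95% exact binomial interval 0.702 to 1.33), 0.157% of CSD 2 (0.0427 to 0.401), 1.93% of HC 1 (1.46 to 2.51) and 0.426% of HC 2 (0.264 to 0.650). The intervals cover counting error only. The intervals of the 2 libraries of a group did not overlap, while the groups did. CSD libraries averaged 0.569% ± 0.583 and HC libraries 1.18% ± 1.06 (SD, n = 2), a difference of -0.609 percentage points (exact two-sided permutation test, p = 0.667, where 2 libraries against 2 cannot go below 0.333). Without CSD replicate 2 the difference was -0.197 percentage points, and without HC replicate 1 it was 0.143 percentage points in the other direction. Against microglia of the same library, macrophages were 3.51% of both classes in CSD 1, 1.02% in CSD 2, 7.74% in HC 1 and 2.46% in HC 2, in the same order of libraries. How many of these cells the dissociation and the CD31 beads released and kept in each library was not measured, so these shares cannot be read as numbers of cells in the brain.

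**Figure D1:**
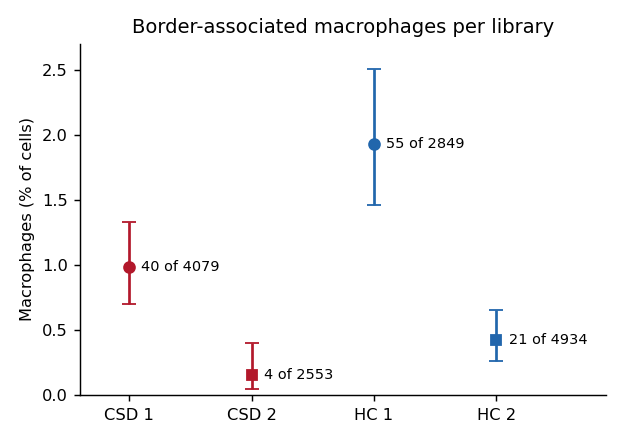
The share of cells that were border-associated macrophages (y axis, % of cells) is plotted for each library, with CSD in red and HC in blue. Points are library values, bars are 95% exact binomial intervals, and the labels give macrophages of all cells. The highest and the second lowest values, 1.93% and 0.426%, were both HC libraries.

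The label was checked on 12 further markers of border-associated macrophages that the rule did not use. All 12 were detected, and they summed to 9930.1 CPM in CSD 1, 7712 in CSD 2, 8214.5 in HC 1 and 5761 in HC 2, against 431 to 495 CPM in microglia of the same libraries. Since the 3′ method counts a captured molecule once whatever its length, levels in CPM were not scaled by gene length. Pf4, a CXC chemokine also called platelet factor 4 (GRCm38 chr5:90772435-90773383, plus strand), stood at 3214 CPM in CSD 1, 3036 in CSD 2, 3986 in HC 1 and 4358 in HC 2, and at 1.13 ± 0.823 CPM in microglia (SD, n = 4). Mrc1, the mannose receptor CD206 (chr2:14229392-14332057, plus strand), stood at 2614, 1397, 2105 and 1702 CPM in the same order, and Ms4a7, a tetraspan membrane protein (chr19:11321039-11336146, minus strand), at 1139, 911, 947 and 1105 CPM. Among the markers outside the rule, Dab2, an endocytic adaptor, averaged 1263 ± 116 CPM, F13a1, the A chain of coagulation factor XIII, 954 ± 356 CPM, and Cd163, the receptor for hemoglobin bound to haptoglobin, 694 ± 309 CPM (SD, n = 4). The 3 genes averaged 9.33, 0.156 and 0.112 CPM in microglia.

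Some markers were found in a minority of the cells. After each cell was thinned to 500 UMIs, which left out no cell, Pf4 was seen in 80.8% of macrophages, Mrc1 in 59.2%, Cd163 in 20.8%, Lyve1 in 10.0% and Folr2, the folate receptor beta, in 9.17%. Without thinning the shares were 100% for Pf4, 85.0% for Mrc1 and 45.8% for Cd163. In endothelial cells, thinned in the same way, Pf4 was seen in 0.558% and the other 4 in under 0.1%. Lyve1 stood at 576 CPM in CSD 1, 60.7 in CSD 2, 224 in HC 1 and 59.7 in HC 2, so that it varied more between the libraries of a group than between the groups.

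Markers of most other cells were low, while those of the choroid plexus and of microglia were found at higher levels. The 7 microglial markers that the rule did not use summed to 684 CPM in CSD 1, 1336 in CSD 2, 1177 in HC 1 and 1164 in HC 2, against 1145 to 1286 CPM in free RNA (barcodes of at most 100 UMIs) and 14494 to 16572 CPM in microglia. Sall1, a transcription factor of microglia, had no UMI. Of 6 markers of Ccr2+ monocytes only Ccr2 was found, at 0, 0, 13.2 and 89.6 CPM in CSD 1, CSD 2, HC 1 and HC 2, while Ly6c2, Plac8, Chil3, Hp and Vcan were at 0. Of 6 dendritic cell markers Flt3, Xcr1, Ccr7 and Clec9a were at 0, and the list summed to 132, 0, 164 and 89.6 CPM in the same order, mostly from the lectin gene Cd209a. The 4 choroid plexus markers summed to 4569 CPM in CSD 1, 668 in CSD 2, 3150 in HC 1 and 6985 in HC 2, nearly all from Ttr, which encodes transthyretin. Microglia of those libraries held 4216, 410, 3037 and 5559 CPM of the same list and free RNA 110464, 24396, 116233 and 144330 CPM, and the part of free RNA in it was not tested. Neutrophil markers were at 0 except Csf3r, T cell markers except Cd3g, and of the endothelial markers outside the rule Pecam1 was at 0 and Slco1a4 at most at 24.0 CPM. Red blood cell, neuron, fibroblast, pericyte, smooth muscle, ependymal, B cell and oligodendrocyte lists each summed to at most 121 CPM in any library, and astrocyte markers to at most 448 CPM, in HC 2, against 1543 to 2737 CPM in free RNA.

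**Figure D2:**
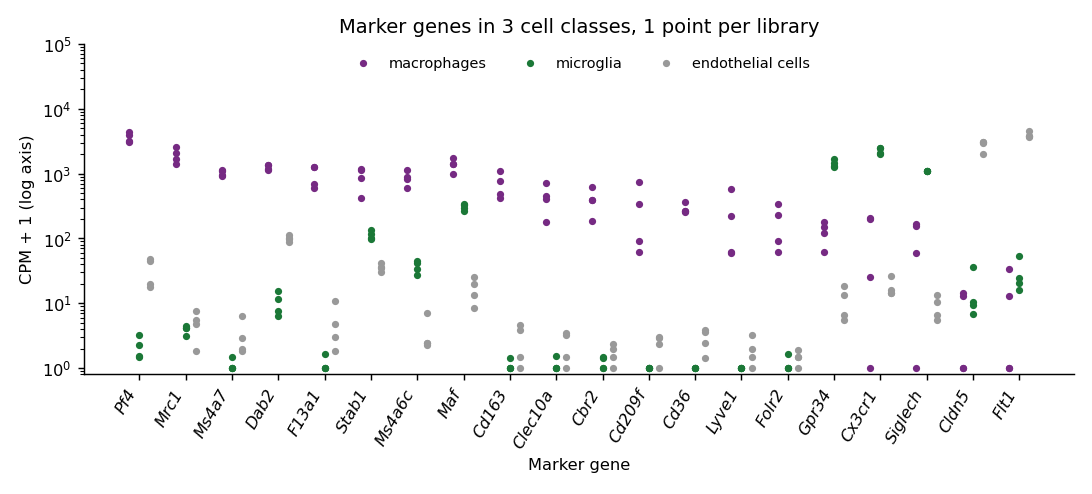
Levels of 20 marker genes (y axis, CPM + 1 on a log axis) are shown in macrophages (purple), microglia (green) and endothelial cells (grey), with 1 point per library. The first 15 genes mark border-associated macrophages, and Pf4, Mrc1 and Ms4a7 chose the cells; Gpr34, Cx3cr1 and Siglech mark microglia, and Cldn5 and Flt1 endothelial cells.

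The transcript with the highest mean level over the libraries was Apoe, which encodes the lipid carrier apolipoprotein E. It stood at 50586 CPM in CSD 1, 55502 in CSD 2, 53193 in HC 1 and 47255 in HC 2. On average it made up 5.16% of the macrophage UMIs, while microglia held 733 ± 191 CPM and endothelial cells 2267 CPM. The 4 macrophage values lay close together and CSD and HC overlapped. Malat1, a nuclear RNA, stood at 53620, 11355, 43657 and 33822 CPM in the same order, above Apoe in CSD 1 and lowest in CSD 2. The ferritin genes Fth1 and Ftl1 averaged 9901 ± 550.5 and 9433 ± 2588 CPM, and Lyz2, lysozyme, 8959 ± 2783 CPM against 254 CPM in microglia. Cst3, the protease inhibitor cystatin C, went the other way, with 9337 ± 1461 CPM in macrophages and 61249 CPM in microglia. Tmsb4x, the actin-binding peptide thymosin beta 4, stood at 14068 CPM in CSD 1, 22043 in CSD 2, 16396 in HC 1 and 14896 in HC 2 and averaged 13512 CPM in microglia. Tpt1, a translation-associated protein, averaged 6698 ± 419.9 CPM and Rps29, a ribosomal protein, 7099 ± 2303 CPM. C1qb stood at 6085 ± 881 CPM in macrophages and 7982 CPM in microglia.

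Over the 3593 genes with a mean of at least 50 CPM in either class, 126 were at least 2-fold higher in macrophages than in microglia in every library and 217 at least 2-fold lower, on a scale of CPM + 20. Without CSD replicate 2 the first count was 169. The 15 genes with the highest ratio in their lowest library were Pf4, Mrc1, Wfdc17, Apoe, Ms4a7, Ccl7, Dab2, F13a1, Lyz2, Ifi207, Cd163, Cybb, Ifitm3, Clec4n and Igf1. Wfdc17, a small secreted protein of macrophages, stood at 1139, 4311, 2749 and 1104 CPM in CSD 1, CSD 2, HC 1 and HC 2 and at 0.9 CPM in microglia. Cybb, the catalytic subunit of the phagocyte NADPH oxidase, averaged 664 ± 160 CPM, Clec4n, the fungal pattern receptor Dectin-2, 400 ± 129 CPM and Igf1, insulin-like growth factor 1, 354 ± 51.6 CPM (SD, n = 4). Each of the 3 was under 2 CPM in microglia. Ifitm3, an interferon-induced membrane protein, was at 886 CPM in macrophages and 21.3 CPM in microglia but at 1382 CPM in endothelial cells.

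Grouped by role, some of the lists held the following counts. Of 26 scavenger and endocytic receptors, 21 reached 50 CPM in either class and 12 of them were at least 2-fold above microglia in every library, with Lrp1 as the only one below. Of 21 chemokines and chemokine receptors, 6 of the 18 that reached 50 CPM were above microglia in every library: Ccl2, Ccl7, Ccl8, Ccl24, Cxcl1 and Cxcl2. Another 3 were at least 2-fold below. Cxcl2, which attracts neutrophils, stood at 6956, 5040, 4163 and 5254 CPM in CSD 1, CSD 2, HC 1 and HC 2 and at 163 CPM in microglia, and Ccl7, which attracts monocytes, at 3226, 1154, 1822 and 1940 CPM and at 11.2 CPM. Ccl3 and Ccl4 did not divide the classes in this way, at 3110 and 1213 CPM in macrophages and 1988 and 2886 CPM in microglia. Of 26 interferon-induced genes, 7 of 13 were above microglia, among them Bst2 (tetherin) and Ifi27l2a. Among 32 lysosome and lipid genes 7 of 29 were above (Apoe, Lyz2, Ctsb, Ctsc, Cd63, Pla2g7 and Plin2) and 5 below, among them Trem2 and Ctsd. No gene was above in the lists of cytokine (18 genes), immediate-early (22), glucocorticoid target (15), class I (10), mitochondrial (13) and cell cycle genes (4). Over all 3593 genes 3.51% were above microglia. None of the lists held a gene of the membership rule.

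Within the macrophages, the levels of MHC class II fell into separate ranges. H2-Aa and H2-Ab1 encode the chains of the class II molecule I-A, H2-Eb1 the beta chain of I-E, and Cd74 the invariant chain that guides them to endosomes. H2-Aa (chr17:34282744-34287823, minus strand), H2-Ab1 (chr17:34257689-34269419, plus strand) and H2-Eb1 (chr17:34305867-34316674, plus strand) lie close to each other on mouse chromosome 17. Their promoters, and those of related genes, are known for a shared module of X and Y boxes bound by RFX factors, NF-Y and the coactivator CIITA. The 150 bases before the start sites of H2-Aa and H2-Eb1 are shown because both hold the Y box letters CTGATTGG (in capitals), which begin 51 and 62 bases before the start. They are RefSeq promoter sequences of GRCm38, written 5′ to 3′ on the strand of the gene, from chr17:34287824-34287973 (minus strand) and chr17:34305717-34305866 (plus strand):
H2-Aa: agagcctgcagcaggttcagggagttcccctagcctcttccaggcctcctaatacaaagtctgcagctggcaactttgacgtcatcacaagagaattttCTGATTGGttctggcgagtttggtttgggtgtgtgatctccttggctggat
H2-Eb1: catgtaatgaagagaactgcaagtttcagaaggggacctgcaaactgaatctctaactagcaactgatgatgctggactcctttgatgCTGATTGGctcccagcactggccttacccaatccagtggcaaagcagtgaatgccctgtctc

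On either strand, CTGATTGG occurred in 1346 of 32851 promoters of 300 bases (4.10%). It occurred in 3 of the 10 genes of the class II presentation list that had an entry (H2-Aa, H2-Eb1 and H2-Oa). H2-Ab1 was not among the entries. These letters were 1 of 8 strings searched, and were chosen after the matches were seen. A shorter string that it contains, GATTGG, occurred in 16.1% of promoters. Another, TGATTGG, occurred in 7.82%. Among strings of the X box, AGCAAC occurred in 14.8% and matched H2-Eb1 and H2-Oa. The overlapping string GCAACAG occurred in 5.48%, or in 0.0639% when the letters ATG had to follow it, with no match in a class II gene either way. Of the ETS strings, GAGGAA occurred in 28.3% and matched Pf4, Mrc1, Ms4a7 and F13a1. In the class II list, which is not limited to genes of the class II molecule, it matched H2-DMb1, Ctss, Ifi30 and Klra2. The extension GAGGAAGT occurred in 3.20% and matched Pf4, F13a1 and, in the class II list, Ctss. A match is a description of letters, not of a bound site.

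Class II UMIs (H2-Aa, H2-Ab1, H2-Eb1 and Cd74 together) made up at least 1.66% of the UMIs of 18 macrophages and at most 0.163% of those of the other 102, with no cell between. The 18 cells had a median of 4.04% and at most 7.94%. They are called MHC class II-high here, by a limit of 0.5% set after the values were seen, and they are a range of a score, not a named type. All 18 held UMIs of each of the 4 genes, and none held fewer than 29 class II UMIs, whereas 19 of the other 102 cells held any, and at most 6. Depth did not divide them, with a median of 1907 UMIs in the 18 cells and 2061.5 in the 102. Among endothelial cells, which should lack H2-Aa, 0.269% had a UMI of it at a median of 1170 UMIs per cell.

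In counts pooled over the libraries, other genes differed between these ranges in both directions. The class II-high cells were 2 of CSD 1, 0 of CSD 2, 7 of HC 1 and 9 of HC 2. The other cells were 38, 4, 48 and 12 in the same order. The part of the library and of the condition in these differences was not tested. H2-DMa and H2-DMb1, the chains of the chaperone that loads peptide onto class II, were found in 13 and 14 of the 18 class II-high cells and in 2 and 6 of the other 102. Cx3cr1, the fractalkine receptor, was found in 12 of 18 against 11 of 102, Cd52, a small surface glycoprotein of leukocytes, in 11 against 6, and Fxyd5, a regulator of the sodium pump, in 10 against 5. In the other direction, Clec4n was found in 0 of 18 and 55 of 102 cells, Folr2 in 0 and 30, Slc40a1, the iron exporter ferroportin, in 0 and 32, Clec10a, a galactose-binding lectin, in 1 and 47, and Lyve1 in 1 and 36. Ccl24, an eosinophil attractant, was found in 1 and 58, Vcam1, an adhesion molecule, in 2 and 57, and Wfdc17 in 3 and 72. A count of 0 of 18 cells does not show absence, since a cell can express a gene without a captured UMI of it. These genes were picked by their ratio, so no test is given. After thinning to 500 UMIs, H2-Aa was seen in 17 of 18 and 0 of 102 cells, Wfdc17 in 1 and 51, Clec4n in 0 and 24 and Ccl24 in 1 and 29.

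The 12 markers of border-associated macrophages outside the rule had a median sum of 3101 CPM in the class II-high cells against 8984 CPM in the other 102, and a median of 3 against 7.5 of the 12 were found per cell. At least 1 of the 12 was found in 16 of 18 and 101 of 102 cells. The 7 microglial markers outside the rule had a median sum of 2281 CPM against 542 CPM, and 4 of the 18 cells but none of the 102 held a UMI of a Ccr2+ monocyte marker. Of the dendritic cell markers, 1 of 18 and 23 of 102 cells held a UMI. Lyve1, Cd163 or Folr2 was found in 5 of 18 and 73 of 102 cells, so that cells with both class II-high levels and 1 of these 3 genes were 5 of 120. The part of monocyte-derived cells in the class II-high range was not tested. Over all libraries the median doublet score was 0.0682 in the class II-high cells and 0.049 in the other macrophages. It was 0.0834 against 0.047 in CSD 1, with 2 class II-high cells, and 0.0689 against 0.0419 in HC 1. In HC 2 it was 0.0668 in the 9 class II-high cells and 0.129 in the other 12 macrophages.

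**Figure D3:**
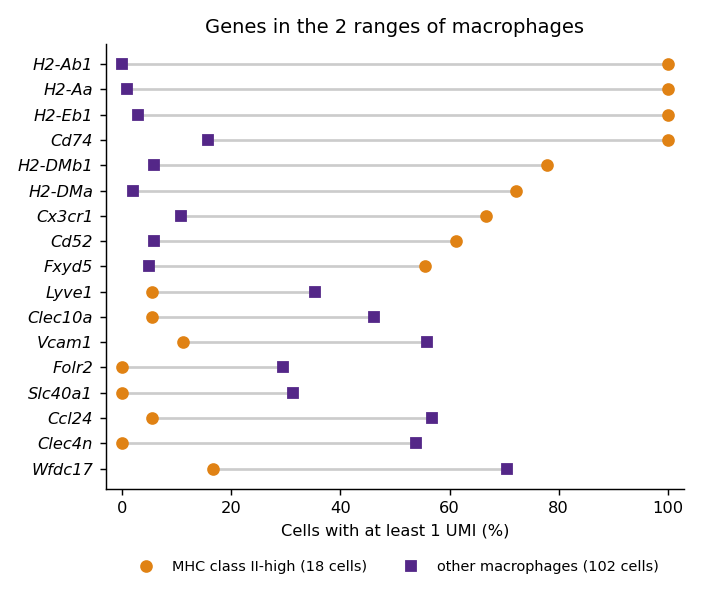
The percentage of cells with at least 1 UMI (x axis) is shown for 17 genes in the 18 MHC class II-high macrophages (orange circles) and the other 102 (purple squares), pooled over the 4 libraries. The 4 class II genes set the ranges and the others were picked by their ratio. From Lyve1 downward the order of the symbols turns around.

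The class II-high cells came mostly from HC. They were 2 of 40 macrophages in CSD 1 (5.00%, 95% exact interval 0.611 to 16.9), 0 of 4 in CSD 2 (up to 60.2%), 7 of 55 in HC 1 (12.7%, 5.27 to 24.5) and 9 of 21 in HC 2 (42.9%, 21.8 to 66.0). Both HC libraries were above both CSD libraries, but HC 2 lay far above HC 1, and the interval of CSD 2 covered every other library. CSD libraries averaged 2.50% ± 3.54 and HC libraries 27.8% ± 21.3 (SD, n = 2), a difference of -25.3 percentage points, at the smallest p that 2 libraries against 2 can give (exact two-sided permutation test, p = 0.333). Leaving out HC replicate 2 gave -10.2 percentage points. Limits from 0.1% to 2% of UMIs gave -26.1 to -23.3 percentage points.

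**Figure D4:**
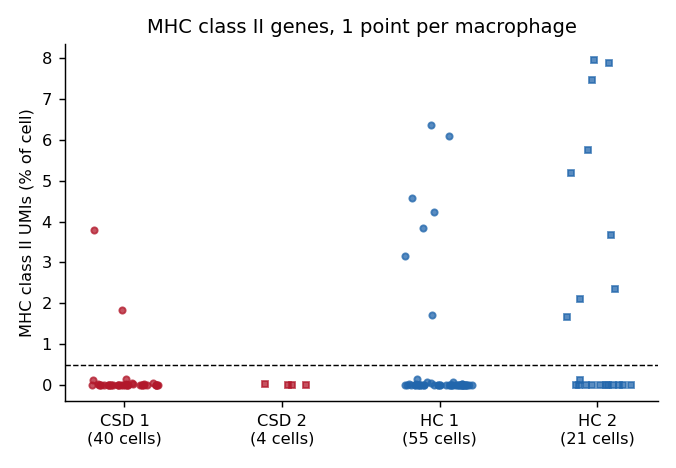
The share of a cell's UMIs that came from H2-Aa, H2-Ab1, H2-Eb1 and Cd74 (y axis, %) is plotted for each of the 120 macrophages by library, with CSD in red and HC in blue, spread sideways for sight. The dashed line marks 0.5%. There were 2 cells above it in CSD 1, 0 in CSD 2, 7 in HC 1 and 9 in HC 2.

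Gene levels in CSD and HC were then compared on UMI counts summed over the macrophages of each library, with edgeR's quasi-likelihood test and Benjamini-Hochberg adjustment over 851 genes that passed the filter on low counts. No gene was called at an adjusted p of 0.05 (0% of the genes tested). The lowest adjusted p was 0.907, and 19 genes had an unadjusted p under 0.05. DESeq2 also called 0 genes, with 4 under an unadjusted p of 0.05. In 238 of the 851 genes (28%) the values of CSD and HC libraries did not overlap. Without CSD replicate 2, 1571 genes were tested and 7 were called, with H2-Aa, H2-Ab1, H2-Eb1, Cd74, Cd52 and 1500002C15Rik lower and Cyr61 higher in CSD, in a fit where the only CSD library was assumed to vary like the HC libraries. Cyr61, a matricellular protein, stood at 408 CPM in CSD 1, 121 in CSD 2, 72.3 in HC 1 and 29.9 in HC 2, and at 489 CPM in endothelial cells, whose part in it was not tested. Cd52 stood at 0, 121, 151 and 478 CPM in the same order, so that CSD 2 lay near HC 1. Without the filter, 10997 genes were tested and 5 were called, all lower in CSD: the same 4 class II genes and 1500002C15Rik. All 51 UMIs of 1500002C15Rik came from 1 cell of HC 1. In these pooled sums, fewer cells with a transcript and less of it per cell cannot be told apart.

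The genes nearest to a call were given by a rule, up to 5 per direction with the smallest p among those whose groups did not overlap. On the lower side in CSD, without a call, were Ptgds, Cd74, H2-Aa, H2-Eb1 and H2-Ab1. H2-Aa stood at 300 CPM in CSD 1, 0 in CSD 2, 1125 in HC 1 and 3970 in HC 2, a log2 fold change of -3.47 (SE 0.86, edgeR adjusted p = 0.907). H2-Ab1 stood at 312, 0, 1046 and 3881 CPM (-3.37, SE 0.87), H2-Eb1 at 360, 0, 1276 and 3045 CPM (-3.01, SE 0.76) and Cd74 at 911, 182, 2473 and 6955 CPM (-2.83, SE 0.69). HC 2 was highest and CSD 2 lowest for each of the 4 genes, and the sizes rested on single libraries. Leaving out 1 library gave -4.94 (without CSD replicate 1) to -2.09 (without HC replicate 2) for Cd74. For H2-Aa it gave -4.18 to -2.54 and for H2-Ab1 -4.10 to -2.39, the lower value without HC replicate 1 and the higher without HC replicate 2. Without CSD replicate 1 the only CSD library left held no UMI of H2-Aa, H2-Ab1 or H2-Eb1, so no fold is given. The microglial marker Cx3cr1, also found in class II-high cells, was lower in CSD too, without a call. It stood at 24.0 CPM in CSD 1, 0 in CSD 2, 197 in HC 1 and 209 in HC 2 (-3.25, SE 0.89). The 7 microglial markers outside the rule, which include Cx3cr1, summed highest in CSD 2 and lowest in CSD 1. With the 18 class II-high cells left out, a choice that by itself removes most class II UMIs, 701 genes were tested and 0 were called (edgeR, 9 under an unadjusted p of 0.05).

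Ptgds, the synthase of prostaglandin D2 that meningeal and choroid plexus cells secrete, stood at 276 CPM in CSD 1, 182 in CSD 2, 855 in HC 1 and 776 in HC 2 (log2 fold change -1.73, SE 0.41, edgeR adjusted p = 0.907). Without CSD replicate 1 the log2 fold change was -2.48, and with at most 10% mitochondrial UMIs per cell -1.11. Free RNA held 836 CPM of Ptgds on average, the level of the HC macrophages, and 73 of the 130 UMIs of HC 1 came from 1 cell. The part of free RNA in the difference was not tested.

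On the higher side in CSD, without a call, were C4b, Gdpd1, Hspa1a, Plin2 and Scoc. C4b, the complement component C4 (chr17:34728380-34743882, minus strand), stood at 276 CPM in CSD 1, 364 in CSD 2, 72.3 in HC 1 and 89.6 in HC 2 (log2 fold change 1.92, SE 0.53, edgeR adjusted p = 0.916), with a mean of 6.08 CPM in free RNA and 0.833 CPM in microglia. Those values came from 23, 6, 11 and 3 UMIs in 13, 1, 9 and 3 cells, so that the value of CSD 2 rested on its deepest cell alone. Plin2, the coat protein of lipid droplets, stood at 312, 425, 138 and 119 CPM (1.34, SE 0.46), and Hspa1a, an inducible heat shock protein, at 1403, 1882, 638 and 925 CPM (1.03, SE 0.35). Hspa1a and Hspa1b are near-identical copies that share reads, so their separate levels are uncertain. Gdpd1, a lysophospholipase, stood at 204, 304, 59.2 and 29.9 CPM (2.08, SE 0.68, and 2.84 without HC replicate 1), and Scoc, a coiled-coil protein of the Golgi, at 348, 182, 112 and 89.6 CPM (1.47, SE 0.54). Among these 5 genes, which were chosen for groups that did not overlap, CSD 2 contributed at most 7 UMIs except for Hspa1a, with 31. The 5 UMIs of Gdpd1 in CSD 2 also came from its deepest cell, as did 20 of the 31 of Hspa1a and 4 of the 7 of Plin2.

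**Figure D5:**
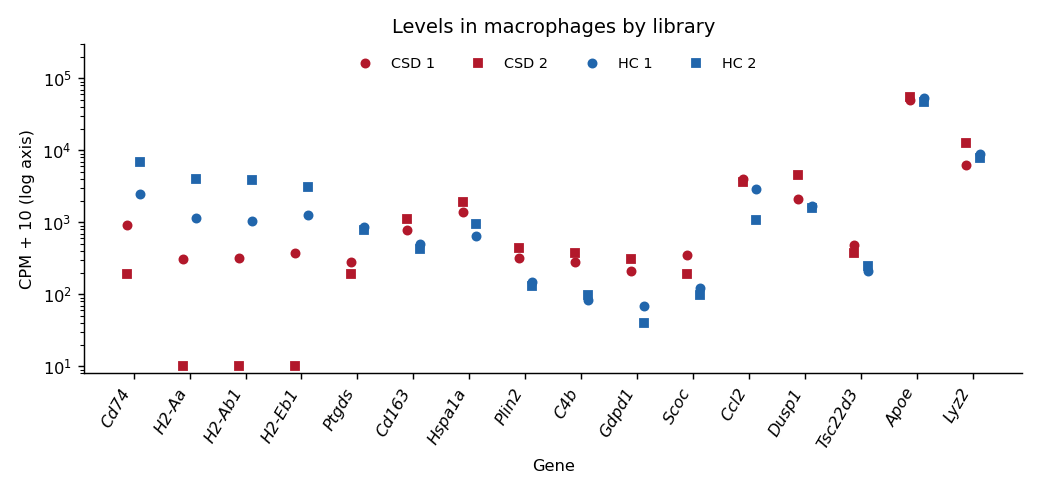
Levels of 16 genes in macrophages (y axis, CPM + 10 on a log axis) are shown for each library, CSD in red and HC in blue, circles for library 1 and squares for library 2. H2-Aa, H2-Ab1 and H2-Eb1 had no UMI in CSD 2 and lie on the bottom, and Apoe and Lyz2 overlapped between groups.

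Across 17 gene lists no member was called in either direction. The lists are described by their counts and medians beside those of all 851 genes, of which 437 had a log2 fold change above 0, with a median of 0.01. Of the 14 genes of the class II presentation list, which also holds Ctss, Ifi30 and Klra2, 6 were tested, with 5 below 0 and a median of -2.92. The list summed to 3634 CPM in CSD 1, 1275 in CSD 2, 7879 in HC 1 and 20538 in HC 2. Of 12 class I genes 5 were tested, all between -0.57 and -0.11, among them B2m, the light chain of class I. With the class II-high cells left out, 3 of 4 class I genes were above 0, with a median of 0.11.

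Leaving out 1 library at a time turned the sign of the median in 10 of the 17 lists. Over the alternatives of this gene comparison, 3 lists kept the sign of their median, those of class II, glucocorticoid target and mitochondrially encoded genes. For class II the median was only -0.0051 with the class II-high cells left out, where 2 genes were tested and 1 was above 0.

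Of 25 glucocorticoid target genes 8 were tested, all 8 had a log2 fold change above 0, with a median of 0.65, and in 6 the groups did not overlap (28% over all genes). Such genes respond to the stress hormone corticosterone in many tissues. Tsc22d3, which encodes the glucocorticoid-induced leucine zipper, stood at 480 CPM in CSD 1, 364 in CSD 2, 204 in HC 1 and 239 in HC 2 and Dusp1, a MAP kinase phosphatase, at 2087, 4494, 1697 and 1552 CPM (log2 fold change 0.89, SE 0.38, edgeR adjusted p = 0.998). Neither was called. Leaving out 1 library at a time gave medians of 0.35 to 0.88, the lowest without CSD replicate 1, with 5 of 6 above 0. Without the filter on low counts 15 of 22 genes were above 0, with a median of 0.23, and with at most 10% mitochondrial UMIs 7 of 8. Without CSD replicate 2, 8 of 11 tested genes of the list were above 0, with a median of 0.47. Of 20 heat shock genes 11 were tested, with 10 above 0 and a median of 0.53, and the list summed to 13036, 8926, 7728 and 7732 CPM in CSD 1, CSD 2, HC 1 and HC 2. Hspa5, the chaperone BiP of the endoplasmic reticulum, stood at 3238, 1640, 1651 and 1731 CPM, high in CSD 1 alone. Without CSD replicate 2, 14 of 15 were above 0, whereas without CSD replicate 1 the direction turned, with 4 of 11 above 0 and a median of -0.35. Of 26 immediate-early genes 18 were tested, with 11 above 0 and a median of 0.20, and Jun, a subunit of AP-1, stood at 4785, 7165, 4314 and 4120 CPM. Here too the median turned, to -0.20 with 4 of 18 above 0 without CSD replicate 1 and to -0.06 with 7 of 18 without HC replicate 2. Genes of the last 2 lists respond to dissociation in many cell types. The part of the dissociation was not tested in these levels or in those of the glucocorticoid target genes. With RLE size factors the counts above 0 were the same in these 3 lists.

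Of 21 chemokine and receptor genes 11 were tested, with 5 above 0 and a median of -0.04. Ccl2, the main attractant of monocytes, stood at 3994 CPM in CSD 1, 3643 in CSD 2, 2861 in HC 1 and 1075 in HC 2 (log2 fold change 0.86, SE 0.46), with both CSD libraries above both HC libraries and no call. Of 26 scavenger and endocytic receptors 16 were tested, with 11 above 0 and a median of 0.20, and Cd163 stood at 780, 1093, 487 and 418 CPM in CSD 1, CSD 2, HC 1 and HC 2. Its log2 fold change was 0.92 (SE 0.36), with an edgeR p of 0.0378 before adjustment and 0.998 after it. The median of the list was -0.41 with 5 of 13 above 0 without CSD replicate 1, -0.02 with 9 of 19 without HC replicate 2 and -0.04 with 11 of 24 without the filter on low counts. Among 20 heme and iron genes 8 were tested, with 5 above 0 and a median of 0.23, and Ftl1, the ferritin light chain, stood at 9103, 12934, 9010 and 6687 CPM. Of 32 lysosome and lipid genes 23 were tested, with 13 above 0 and a median of 0.02.

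The 12 tested of 13 mitochondrially encoded genes were all below 0, with a median of -0.43, and in 9 of them the groups did not overlap (28% over all genes). With cells limited to at most 10% mitochondrial UMIs, 4 of 11 were above 0, with a median of -0.05. Without CSD replicate 2, 11 of 12 were below 0, with a median of -0.28. Among them mt-Co3, a subunit of cytochrome c oxidase, stood at 12029 CPM in CSD 1, 8926 in CSD 2, 14883 in HC 1 and 12717 in HC 2, and mt-Atp6, a subunit of the ATP synthase, at 11789, 11295, 15416 and 14806 CPM. Their sum was 59640 CPM in CSD 1, 50826 in CSD 2, 74390 in HC 1 and 70957 in HC 2, and it is also a measure of cell quality, for which cells had been filtered. The sum and the cells went different ways in CSD 2, which had the lowest sum and the highest median share per cell (8.85%). Its deepest cell had 3.87% mitochondrial UMIs, against 7.37% in the deepest cell of CSD 1, 19.7% in HC 1 and 19.4% in HC 2. Leaving these cells out raised the mitochondrial share of the sum in CSD 2 and lowered it in each other library. With the deepest cell of each library left out, a choice made after the data were seen, mitochondrial genes made up 5.88% of the UMIs in CSD 1, 7.16% in CSD 2, 6.78% in HC 1 and 5.77% in HC 2, and the groups overlapped. In the remaining lists the medians were 0.25 in 4 tested complement genes other than C1q, 0.12 in 6 cytokine and NF-kappaB genes, -0.18 in 7 interferon-induced genes, -0.14 in 4 genes of the response to IL-4 and IL-13, 0.15 in 12 macrophage receptors and transcription factors, 0.04 in 5 growth factors, proteases and coagulation factors, and 0.24 in 2 cell cycle genes, Tubb5 (1.01, SE 0.62) and Hmgb2 (-0.53, SE 0.73), which had opposite signs and no call.

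Whether the CSD effect differed between macrophages and microglia of the same libraries was tested with an interaction term, with the library as a block, over 8581 genes. No gene was called (0%, edgeR, lowest adjusted p = 0.620), and 93 genes had an unadjusted p under 0.05. With RLE size factors 2 genes were called, H2-Ab1 and Cd74, both with a lower CSD effect in macrophages. In microglia Cd74 stood at 106 CPM in CSD 1, 56.4 in CSD 2, 104 in HC 1 and 85.9 in HC 2, with a log2 fold change of -0.20 (SE 0.30) against -2.83 (SE 0.69) in macrophages, and the difference was -2.99 (SE 0.83) without a call. The differences come from the joint fit, which was normalized over both classes, and so are not those of the separate effects. For H2-Ab1 the difference was -3.44 (SE 0.87, edgeR adjusted p = 0.620). The difference was -1.48 (SE 1.61) for H2-Aa and -1.70 (SE 1.13) for H2-Eb1, without a call. Neither of these genes had a separate estimate in microglia, and the members were not tested against each other.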

How the data were processed

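Per the labels and the study's methods, cells of 4 pools of 4 mice were sequenced with the 10x Genomics 3′ kit V3.1. The authors deposited UMI counts per gene and barcode, without normalization and before cell calling. The submitters' processing notes name Cell Ranger 4.0 and GRCm38 (mm10), the study's methods name another version, and the file headers give software version 3.1.0. The libraries held 28619757, 30361474, 27297599 and 30250156 UMIs (CSD 1, CSD 2, HC 1, HC 2).

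Macrophages were chosen by the rule given in the report. Microglia needed at least 3 UMIs and 0.2% of P2ry12 and Tmem119 with under 0.1% of the macrophage markers, and endothelial cells at least 5 UMIs and 1% of their 5 genes, which gave 2977 and 4835 cells. Counts were summed per library and tested with edgeR 4.0.16 (filterByExpr, TMM, glmQLFit, glmQLFTest; R 4.3.3), two-sided, and DESeq2 1.42.0 was an alternative. The study tested cells with a rank sum test, and cells of a library are not replicates. Libraries of a group are pools of different mice. The edgeR step was tested on simulated data, and the outcome is not given here. Gene positions are from GENCODE M21 by Ensembl ID (31011 of 31053 genes matched). Promoters are those of RefSeq. Shares were compared with exact permutation tests, and intervals are exact (Clopper-Pearson). Ratios between classes used CPM + 20.

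Genes to be named were drawn from the genes of the rule and the markers, the 4 most abundant members of each list, the 5 genes per direction with the smallest p among those without overlap, the 15 with the highest ratio over microglia and the 10 most abundant, and only some of them are described. Genes of the class II ranges, those called under an alternative, Tsc22d3, Ccl4 and list members named for their ratio over microglia were chosen after their values were seen. The members and gene lists were chosen with earlier results of these data known. Alternatives were other size factors, filters, limits, doublet removal, libraries left out and the replicate block. One gene of the marker lists is left out by design and not reported here.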

Additional observations from a re-analysis of the deposited data

How the results depend on the processing

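The count of 0 genes called between CSD and HC in macrophages was the same in 13 of 15 alternatives, of which the complexity filter and the removal of marked doublets left the same cells and could not differ. Without the filter on low counts it was 5, of which 4 were members of the lists. Leaving out 1 library at a time gave 0 to 7 genes, and 0 to 4 members of the lists, with the upper values without CSD replicate 2. The replicate block also gave 0 genes, with 28 against 19 at an unadjusted p under 0.05; the numbers share no stated batch, CSD 1 and HC 1 had deviations that correlated at 0.208 over 851 genes, and it was run for this comparison and its lists and named genes only, where it changed no call. The interaction with microglia gave 2 genes with RLE size factors and 0 in the other 5 alternatives, among them each library left out. The difference in the share of macrophages was 0.143 percentage points without HC replicate 1, and leaving out 1 library gave -1.36 to 0.143. The difference in class II-high cells was -40.4 to -10.2 percentage points when 1 library was left out, and 126 genes above microglia in every library became 141 to 169. The 10 genes nearest to a call were chosen for groups without overlap, which fixes their direction when a library is left out, and H2-Aa, H2-Ab1, H2-Eb1 and Cd74 were called in 2 alternatives. The causes were not tested, except that fewer libraries and another filter change the genes tested. The number of macrophages limits CSD 2 most, at 4 cells, of which 1 gave 63.2% of the UMIs.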
